A study of Homo sapiens with 8 samples.

Results

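The endoplasmic reticulum folds secreted and membrane proteins, and the unfolded protein response adjusts its capacity. Transcripts of 36 genes of this system were followed in 8 RNA-seq libraries of LNCaP-FGC cells, a clonal human prostate carcinoma line that depends on androgen. The 36 genes were taken from a list of chaperones, degradation genes and stress sensors that was chosen with earlier results of these data known. The transcripts of each gene were summed. The genes fell into 7 sensors and factors, 16 chaperones and folding enzymes, 10 degradation genes and 3 translocation and export genes, of 19431 genes in the table with a matched transcript. The cells had been exposed for 24 h to I-CBP112 and A-485 together, to A-485 alone, to I-CBP112 alone or to the solvent DMSO. p300 and CBP are acetyltransferases that activate transcription. I-CBP112 blocks the domain with which they bind acetylated lysines, the bromodomain, and A-485 blocks their catalytic site. Doses are not given in the labels used here. Each of the 4 groups held 2 libraries, and all came from the same cell line, so the comparisons concern 1 line only.

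In the unfolded protein response, 3 sensors span the membrane of the endoplasmic reticulum. IRE1, encoded by ERN1, cuts the XBP1 mRNA so that a short segment is lost and an active transcription factor is made. ATF6 and its relatives of the CREB3 family are released by proteases of the Golgi, and PERK, encoded by EIF2AK3, slows translation and raises ATF4. The factors switch on chaperones, genes of the translocon and the degradation machinery that returns misfolded proteins to the cytosol. Prostate luminal cells are secretory, and XBP1 and CREB3L4 are well known as abundant there.

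Because XBP1 exists as an uncut and a cut mRNA, the segment that tells the table's transcript models apart is shown first. In GENCODE release 29 it lay at chr22:28796127-28796152 on the minus strand of GRCh38, within exon 4 of 5 of XBP1-201. Both lines run 5′ to 3′ in transcript orientation, and capitals mark the 26 bases that XBP1-201 holds and XBP1-202 lacks. Shifts of up to 6 bases give the same joined sequence.
XBP1-201: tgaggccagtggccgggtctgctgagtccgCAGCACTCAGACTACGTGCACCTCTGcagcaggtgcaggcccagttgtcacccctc
XBP1-202: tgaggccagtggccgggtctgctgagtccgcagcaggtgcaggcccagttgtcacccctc

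Promoter stretches are shown for the genes described most closely below, because short elements named for the response are known in several of them. The sequences are RefSeq's, build GRCh38.p14, and 32 of the 36 genes matched at least 1 promoter of 250 bases before to 50 bases after the start. DERL1, DERL3, PDIA3 and SEC24D had no entry. The element ERSE was searched on both strands as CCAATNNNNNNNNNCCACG, and ERSE-II as ATTGGNCCACG. ERSE lay in 27 of all 35116 promoters (0.0769%) and ERSE-II in 19 (0.0541%). A gene can have several promoters among them, as CANX had, so these are shares of promoters and not of genes. The promoters of CALR, CANX, CRELD2, HSP90B1, HSPA5, PDIA6 and XBP1 held ERSE, and those of HERPUD1, HYOU1 and SDF2L1 held ERSE-II. The stretches lie upstream of the start and run 5′ to 3′ along each gene, and capitals mark the match, which reads in reverse complement where it lies on the other strand.
XBP1 (chr22:28800578-28800646, minus strand): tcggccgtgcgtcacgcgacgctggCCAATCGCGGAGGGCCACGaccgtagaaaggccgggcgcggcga
HSPA5 (chr9:125241366-125241434, minus strand): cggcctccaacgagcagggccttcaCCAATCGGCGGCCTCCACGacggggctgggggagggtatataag
CANX (chr5:179698753-179698821, plus strand): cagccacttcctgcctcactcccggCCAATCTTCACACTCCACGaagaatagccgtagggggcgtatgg
CRELD2 (chr22:49918529-49918597, plus strand): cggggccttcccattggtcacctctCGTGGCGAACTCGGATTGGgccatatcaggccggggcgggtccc
CALR (chr19:12938359-12938427, plus strand): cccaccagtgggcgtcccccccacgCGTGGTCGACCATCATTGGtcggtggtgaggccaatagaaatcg
PDIA6 (chr2:10812828-10812896, minus strand): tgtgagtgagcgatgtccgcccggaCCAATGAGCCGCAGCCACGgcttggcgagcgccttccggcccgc
HERPUD1 (chr16:56932000-56932060, plus strand): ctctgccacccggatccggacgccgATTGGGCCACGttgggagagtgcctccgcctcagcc
SDF2L1 (chr22:21642089-21642149, plus strand): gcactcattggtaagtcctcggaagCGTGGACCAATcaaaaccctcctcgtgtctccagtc
A further element, UPRE (TGACGTGG), lay in 0.729% of all promoters and in those of DNAJC10 and HYOU1. The cyclic AMP element TGACGTCA lay in 1.85% of all promoters and in that of CREB3L2. A match describes the letters in these windows and not a site in use.

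Levels are given as scaled FPKM, that is FPKM (fragments over transcript length and library size) after each library was scaled to the others. Changes are log2 fold changes on log2(scaled FPKM + 1) with their standard error after the ± sign, and they understate the change of low genes. A gene was called when its limma p-value, adjusted by Benjamini-Hochberg over the 11876 genes tested, was under 0.05. All 36 genes passed the filter on low values. The libraries numbered 2 stood apart in depth. On the table's transcripts they held about 4.44 to 13.4 M fragments (M, 1e+06), or 21.5 to 49.4% of the fragments by which they had been normalized. The libraries numbered 1 held 16.0 to 28.3 M, or 90.7 to 99.2%. On FPKM as deposited the median gene shifted by 0.61 with both inhibitors, 0.37 with A-485 and 0.05 with I-CBP112 against DMSO on the log2 scale, and changes are reported relative to it. The luminal markers KLK3, KLK2, TMPRSS2, KRT8, KRT18, FOLH1 and HOXB13 were all present. Their levels summed to 2410.0 and 1769 scaled FPKM with both inhibitors, 2461 and 2073 with A-485, 3388 and 3134 with I-CBP112 and 5803 and 4551 with DMSO. TP63, PTPRC, CD3E and CDH5, which define basal, blood and endothelial cells, were listed at 0 in all 8 libraries. Other members of these lists were not. Basal KRT5 and KRT14 summed to 0.18 and 1.90 scaled FPKM with both inhibitors, 0.30 and 0 with A-485, 0.75 and 15.4 with I-CBP112 and 1.09 and 7.20 with DMSO, and the 2 highest were libraries numbered 2. CD68, a macrophage marker, had 5.88 and 3.95 with both inhibitors, 5.76 and 2.12 with A-485, 2.02 and 2.61 with I-CBP112 and 1.96 and 1.43 with DMSO. Its change was 1.121 with both (limma adjusted p = 0.0859, and 0.0456 with the replicate number as a block). Endothelial VWF had 1.25 and 1.01 with both inhibitors, 7.78 and 4.69 with A-485, 2.10 and 1.67 with I-CBP112 and 3.46 and 2.43 with DMSO. Its change was -0.88 with both (limma adjusted p = 0.0708, and 0.0252 with the block) and 0.85 with A-485 (limma adjusted p = 0.0956, and 0.0375 with the block). Summed stromal markers ranged over 23.5 to 24.8 scaled FPKM with both inhibitors, 24.97 to 28.14 with A-485, 18.6 to 22.4 with I-CBP112 and 14.7 to 27.0 with DMSO, and COL1A1 rose by 1.35 with both and 1.23 with A-485. The part of these markers in the results below was not tested.

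Some of the 36 genes fell with both inhibitors or with A-485, XBP1 with both inhibitors had the lowest change, and none was called higher. Against DMSO, both inhibitors lowered 12 of 36 genes (33.3%), where 7.35% of all genes tested were lower and 2.97% higher. A-485 lowered 9 of 36 (25%), beside 3.33% of all genes lower and 1.36% higher. The 36 genes were chosen with earlier results of these data known, so these shares beside those of all genes carry no test. With I-CBP112, 0 of 36 genes were called in the limma test, in which 0% of all genes passed and 1318 of them had an unadjusted p under 0.05. At an unadjusted p under 0.05, 19 of the 36 were lower with both (15.5% of all genes), 20 with A-485 (13.4%) and 9 with I-CBP112 (6.57%), and 0 were higher in any of these 3 comparisons. The median log2 fold change of the 36 genes was -0.57 with both inhibitors, -0.60 with A-485 and -0.36 with I-CBP112, where the medians of all genes tested were 0.02, -0.01 and -0.02. In 24 of the 36 genes both libraries with both inhibitors lay below both DMSO libraries, which held for 27.6% of all genes. The same count was 24 for A-485, against 26.7% of all genes, and 23 for I-CBP112, against 19.9%. The 3 treatments share the DMSO libraries. The FPKM totals as deposited differed within groups, at 808443 and 187776 with DMSO and 766588 and 408673 with both inhibitors. Changes fitted without scaling carry these totals, whose part in the calls made without scaling was not tested. On FPKM as deposited, with no scaling, limma called 0 of the 36 and 0 of all genes in these 3 comparisons. Without the shift of the median gene taken off, 13 of the 36 then lay below 0 with both inhibitors (median 0.19) and 22 with A-485 (median -0.10). Of the 12 genes called with both inhibitors 10 still lay below 0, with XBP1 at -1.16, while CANX and CRELD2 stood at 0.001 and 0.013, and all 9 called with A-485 lay below 0. These are bulk libraries, so fewer expressing cells and less RNA per cell cannot be told apart.

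**Figure D1:**
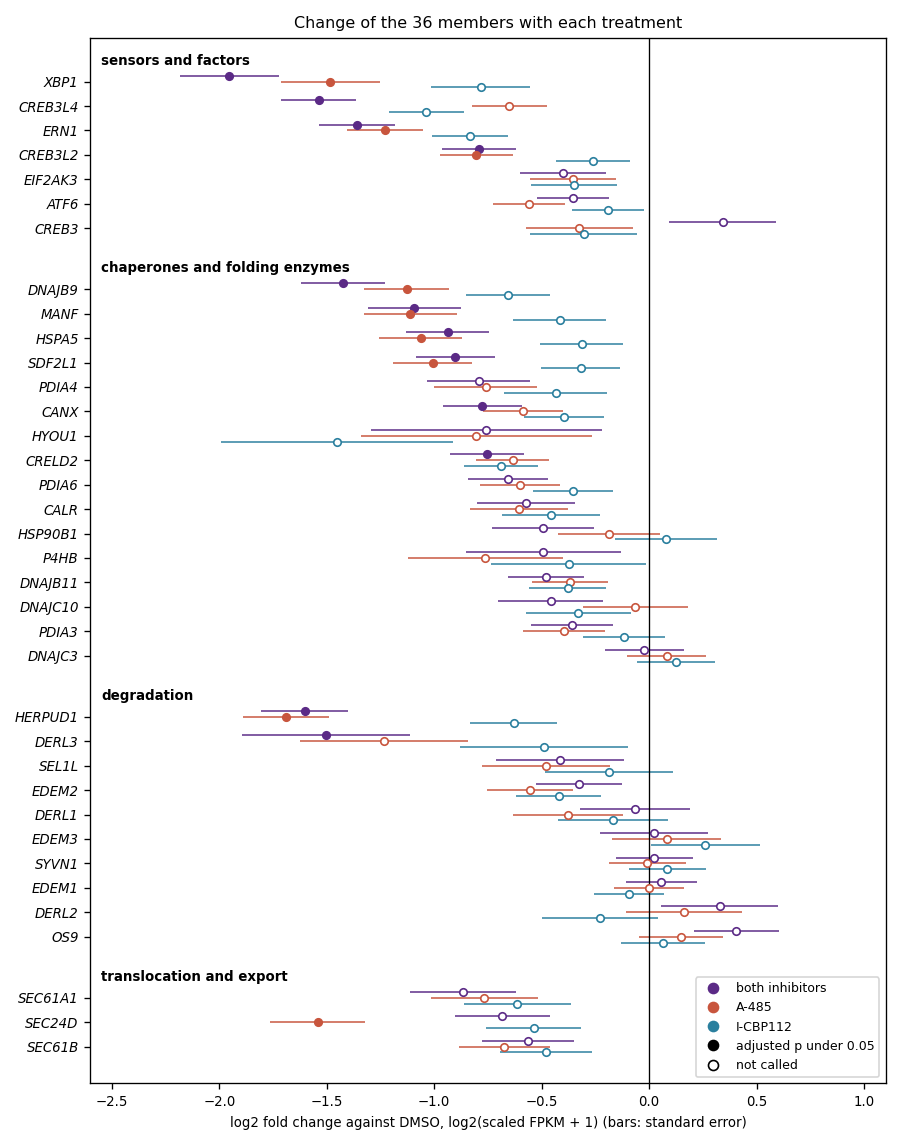
Log2 fold change against DMSO of each of the 36 genes with both inhibitors, A-485 and I-CBP112, by class, with bars for the standard error. Filled points passed an adjusted p of 0.05, and XBP1 with both inhibitors, at -1.95, lies farthest left.

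Among the 7 sensors and factors, both inhibitors lowered ERN1, XBP1, CREB3L2 and CREB3L4 (4 of 7, median -0.79), and A-485 lowered ERN1, XBP1 and CREB3L2 (3 of 7, median -0.65). Of all genes tested, 7.35% were lower with both inhibitors and 3.33% with A-485. XBP1, the factor made active by the IRE1 cut, had 71.0 and 64.8 scaled FPKM with both inhibitors, 99.1 and 89.8 with A-485, 146 and 162 with I-CBP112 and 323 and 218 with DMSO. All treated libraries lay below both DMSO libraries, and the 2 with both inhibitors were the lowest. The log2 fold change was -1.95 ± 0.23 with both (limma adjusted p = 0.00225), -1.48 ± 0.23 with A-485 (limma adjusted p = 0.0144) and -0.78 ± 0.23 with I-CBP112 (limma adjusted p = 0.338). With both compounds the level stood at 0.258 of that with DMSO on this scale.

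ERN1, the gene of the IRE1 sensor itself, had 4.64 and 5.18 scaled FPKM with both inhibitors, 5.28 and 5.65 with A-485, 7.54 and 7.504 with I-CBP112 and 13.0 and 15.5 with DMSO. Again no treated library reached either DMSO library. The change was -1.36 ± 0.18 with both (limma adjusted p = 0.00342), -1.23 ± 0.18 with A-485 (limma adjusted p = 0.0113) and -0.83 ± 0.18 with I-CBP112, which was not called. Its main transcript model, ERN1-201, held 52.6% of ERN1 FPKM with both inhibitors and 62.8% with DMSO.

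Of the 3 members of the CREB3 family among the 36 genes, 2 were called lower with both inhibitors, beside 7.35% of all genes. CREB3L1 and CREB3L3, also of this family, were not among the 36 and fell below the filter on low values. CREB3L4, a membrane-bound factor known as androgen-induced in the prostate, had 18.8 and 18.8 scaled FPKM with both inhibitors, 34.9 and 36.4 with A-485, 29.2 and 25.1 with I-CBP112 and 60.5 and 52.8 with DMSO. The 4 groups did not overlap, and I-CBP112 libraries lay below those with A-485. CREB3L4 fell by 1.54 with both inhibitors (limma adjusted p = 0.00191), while the changes with I-CBP112, -1.04 (limma adjusted p = 0.169), and with A-485, -0.65 (limma adjusted p = 0.0705), were not called. CREB3L2, a relative that acts on secretory pathway genes, had 4.62 and 5.32 scaled FPKM with both inhibitors, 4.97 and 4.84 with A-485, 7.67 and 7.54 with I-CBP112 and 8.96 and 9.68 with DMSO. Its change was -0.79 ± 0.17 with both inhibitors (limma adjusted p = 0.0258) and -0.80 ± 0.17 with A-485 (limma adjusted p = 0.0403), with the A-485 libraries and the combination libraries overlapping. CREB3 itself had 56.6 and 58.6 scaled FPKM with both inhibitors, 36.7 and 35.1 with A-485, 35.1 and 37.8 with I-CBP112 and 59.2 and 34.5 with DMSO. The 2 DMSO libraries of CREB3 lay on either side of the treated libraries with 1 compound, and its change with both inhibitors was 0.34 (limma adjusted p = 0.416).

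The other 2 sensors were not called. ATF6, a sensor cleaved in the Golgi, had 10.2 and 10.8 scaled FPKM with both inhibitors, 8.96 and 8.98 with A-485, 10.96 and 12.8 with I-CBP112 and 13.5 and 13.9 with DMSO. Every treated library of ATF6 lay below both DMSO libraries, with changes of -0.35 (limma adjusted p = 0.217) for both inhibitors and -0.56 (limma adjusted p = 0.0905) for A-485. EIF2AK3, which encodes PERK, had 4.53 and 4.68 scaled FPKM with both inhibitors, 5.02 and 4.55 with A-485, 5.70 and 4.02 with I-CBP112 and 6.40 and 6.39 with DMSO. Here too the treated libraries all lay lower, with -0.40 (limma adjusted p = 0.236) for both inhibitors.

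With any 1 of the 8 libraries left out, the calls of XBP1, ERN1 and CREB3L4 with both inhibitors held in all 8 fits. CREB3L2 lost its call with both without DMSO replicate 2 (limma adjusted p = 0.0531) or without combination replicate 1 (0.186) or 2 (0.118). With A-485, ERN1 lost its call without A-485 replicate 1 (limma adjusted p = 0.0752) or 2 (0.0838), and XBP1 without these (0.0743 and 0.125) or without DMSO replicate 1 (0.0532). CREB3L2 lost its call with A-485 in 7 of 8 such fits, up to an adjusted p of 0.227 without A-485 replicate 2, and kept it only without DMSO replicate 2.

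**Figure D2:**
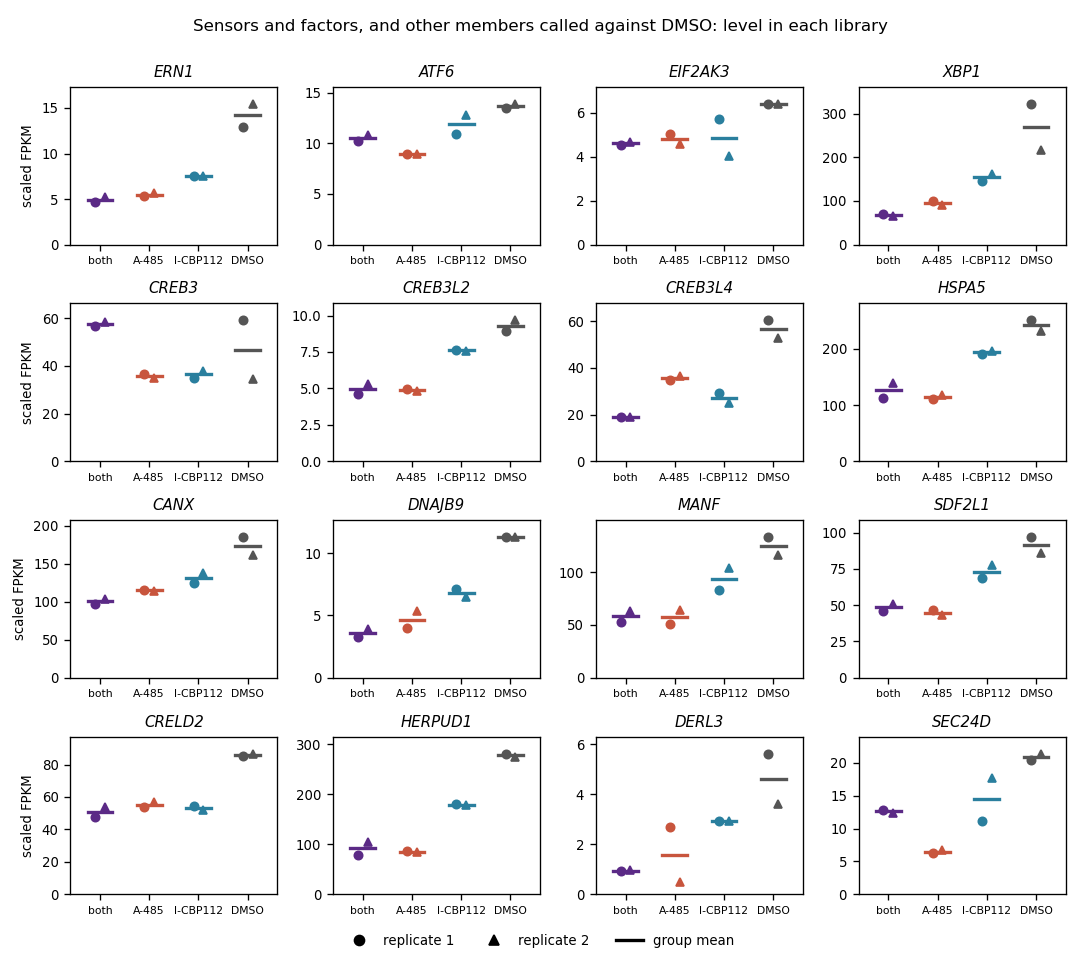
Scaled FPKM in each library of the 7 sensors and factors and of the 9 other genes called against DMSO, with a horizontal line at each group mean (2 libraries per group). In all but CREB3, both combination libraries lie below both DMSO libraries.

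The XBP1 reads were split over 4 transcript models, and the split varied widely between libraries of the same group. A longer annotated model without the 26 bases, XBP1-207 of 1794 bases, was not among the deposited transcripts. The share of XBP1-202 therefore need not be that of the cut mRNA. XBP1-202, the model without the 26 bases, held 36.1 and 6.60% of XBP1 FPKM with both inhibitors, 25.6 and 14.6% with A-485, 29.03 and 18.2% with I-CBP112 and 0 and 14.0% with DMSO. The treated libraries thus overlapped the second DMSO library. By the estimated depth, XBP1-202 rested on about 414 and 51.4 fragments with both inhibitors, 676 and 67.2 with A-485, 613 and 109 with I-CBP112, and 0.03 and 121 with DMSO. XBP1-201, which holds the segment, held 75.2% with both inhibitors and 88.4% with DMSO on average. Its change with both inhibitors was -2.16 ± 0.31 in the fit over transcripts (limma adjusted p = 0.0724), and that of XBP1-202 was 1.08 ± 1.61 (limma adjusted p = 0.86). XBP1-202 also differs in length, at 1131 bases against 1850 in XBP1-201, so the split by the authors' counting may use other parts of the models. XBP1 has an annotated pseudogene, XBP1P1, and PDIA3 has PDIA3P1 and PDIA3P2, with which reads could be shared.

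**Figure D3:**
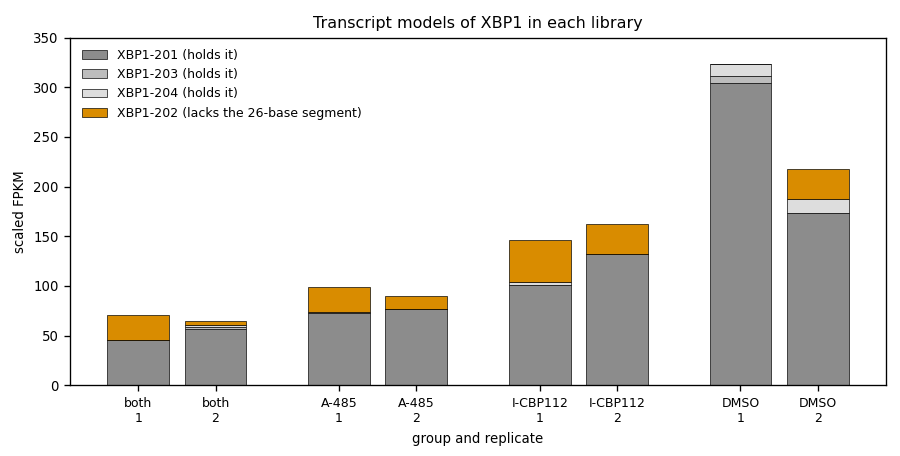
Scaled FPKM of the 4 XBP1 transcript models in each library, stacked, for both inhibitors, A-485, I-CBP112 and DMSO. The bars shrink to 71.0 and 64.8 with both inhibitors, and the orange share of XBP1-202 differs between the 2 libraries of each group.

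Of 142 transcript models of the 36 genes, 97 passed the filter. With both inhibitors 0 were called by limma, where 0.336% of all 31833 transcripts tested were, and 30 of the 97 had an unadjusted p under 0.05. At least 10% of a gene's FPKM in some group was held by 72 models, and 16 genes had a single such model. For HSPA5, DNAJB9, MANF, SDF2L1 and CREB3 that model held 100% in every group.

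With both inhibitors all 16 chaperones and folding enzymes had a fitted change below 0. That of DNAJC3 was within its standard error of 0, and that of HYOU1 rested on few fragments. Of the 16, 6 were called lower with both, beside 7.35% of all genes, with a median of -0.71. With A-485 15 were below 0 and 4 were called lower, beside 3.33% of all genes, with a median of -0.62. With I-CBP112 14 of 16 were below 0, 0 were called by limma, and 3 had an unadjusted p under 0.05. HSPA5 encodes BiP, the main Hsp70 chaperone of the compartment and the classical readout of the response. It had 113 and 139 scaled FPKM with both inhibitors, 111.6 and 119 with A-485, 191 and 197 with I-CBP112 and 251 and 233 with DMSO. The A-485 and combination libraries overlapped each other, and all 4 lay below the I-CBP112 libraries, which in turn lay below DMSO. HSPA5 fell by 0.94 with both inhibitors (limma adjusted p = 0.0215) and by 1.06 with A-485 (limma adjusted p = 0.025).

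Of the genes whose proteins act with BiP, DNAJB9, SDF2L1 and MANF were called. DNAJB9, the J-domain protein ERdj4 that partners BiP, had 3.28 and 3.90 scaled FPKM with both inhibitors, 3.96 and 5.36 with A-485, 7.15 and 6.44 with I-CBP112 and 11.3 and 11.3 with DMSO, and its change was -1.42 ± 0.20 with both (limma adjusted p = 0.0042) and -1.13 ± 0.20 with A-485 (limma adjusted p = 0.0212). SDF2L1, a cofactor of BiP and its J-domain partners, had 45.8 and 51.0 scaled FPKM with both inhibitors, 46.3 and 43.4 with A-485, 68.4 and 77.6 with I-CBP112 and 97.0 and 85.7 with DMSO, with changes of -0.90 (limma adjusted p = 0.0203) for both and -1.01 (limma adjusted p = 0.025) for A-485. In both genes all treated libraries lay below DMSO. MANF, a secreted stress-induced protein that binds BiP, had 52.7 and 63.5 scaled FPKM with both inhibitors, 51.1 and 63.8 with A-485, 83.5 and 104 with I-CBP112 and 133 and 116 with DMSO. The combination and A-485 libraries of MANF overlapped, and it fell by 1.09 (limma adjusted p = 0.0189) with both and 1.11 (limma adjusted p = 0.0299) with A-485. The other J-domain members did not pass, with changes with both inhibitors of -0.48 for DNAJB11, -0.46 for the reductase DNAJC10 and -0.02 for DNAJC3.

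CRELD2, a stress-induced protein of the compartment, had 47.8 and 53.5 scaled FPKM with both inhibitors, 53.6 and 56.6 with A-485, 54.3 and 51.8 with I-CBP112 and 85.5 and 86.8 with DMSO. The 6 treated libraries lay close together, and the change was -0.76 (limma adjusted p = 0.03) with both, -0.64 (limma adjusted p = 0.073) with A-485 and -0.69 (limma adjusted p = 0.293) with I-CBP112. CANX, the membrane-bound lectin chaperone calnexin, had 97.6 and 104 scaled FPKM with both inhibitors, 116 and 115 with A-485, 125 and 139 with I-CBP112 and 185 and 162 with DMSO. Its groups did not overlap, and it fell by 0.78 (limma adjusted p = 0.0347) with both inhibitors but had -0.59 (limma adjusted p = 0.101) with A-485. Its soluble relative CALR, calreticulin, was not called, at -0.57 with both and -0.61 with A-485. The disulfide isomerases PDIA3, PDIA4, PDIA6 and P4HB were not called in any comparison with DMSO. With both inhibitors their changes were -0.79 for PDIA4 (limma adjusted p = 0.0734), -0.66 for PDIA6 (limma adjusted p = 0.0607), -0.49 for P4HB and -0.36 for PDIA3. P4HB had the highest level of the 36 genes, from 867 to 2500.4 scaled FPKM over the libraries. HSP90B1, the Hsp90 of the compartment, had changes of -0.50 with both, -0.19 with A-485 and 0.08 with I-CBP112. HYOU1, an exchange factor for BiP, could not be read, since its longest matched coding model had 2023 bases against 4529 in the annotation, and its models held 0 to 37.4 estimated fragments per library.

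Of these calls with both inhibitors, that of DNAJB9 held whichever library was left out. Those of HSPA5, MANF and SDF2L1 were lost without DMSO replicate 1 (limma adjusted p = 0.0569, 0.0619 and 0.0604), without combination replicate 1 (0.175, 0.145 and 0.154) and without combination replicate 2 (0.0735, 0.0695 and 0.0955). CANX lost its call in 7 of 8 such fits (all but DMSO replicate 2) and CRELD2 in all 8, up to adjusted p-values of 0.206 and 0.205 without combination replicate 1. With A-485, HSPA5 and DNAJB9 lost theirs without DMSO replicate 1 (limma adjusted p = 0.0779 and 0.0731), A-485 replicate 1 (0.125 and 0.117) or A-485 replicate 2 (0.153 and 0.0786). MANF and SDF2L1 lost theirs without any of these 3 or either combination library, up to 0.15 and 0.179.

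Of the 10 degradation genes, 2 were called lower with both inhibitors, where 7.35% of all genes were. DERL3, 1 of the 2, rested on few fragments. With both inhibitors the median of the 10 was -0.02, with 5 below and 5 above 0. With A-485 it was -0.19, with 1 called lower beside 3.33% of all genes. HERPUD1, which gathers the parts of the ubiquitin ligase complex at the membrane and is a well known target of the response, had 78.4 and 105 scaled FPKM with both inhibitors, 85.9 and 84.9 with A-485, 180.2 and 178 with I-CBP112 and 281 and 274 with DMSO. The groups treated with A-485 lay lowest and overlapped each other, I-CBP112 lay between, and DMSO was highest. HERPUD1 fell by 1.69 ± 0.20 with A-485 (limma adjusted p = 0.00655) and by 1.60 ± 0.20 with both (limma adjusted p = 0.00305), and had -0.63 (limma adjusted p = 0.353) with I-CBP112. The call with both held whichever library was left out, and that with A-485 was lost without A-485 replicate 2 (limma adjusted p = 0.0593).

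DERL3, a derlin of the export channel, had 0.939 and 0.953 scaled FPKM with both inhibitors, 2.69 and 0.489 with A-485, 2.92 and 2.94 with I-CBP112 and 5.62 and 3.602 with DMSO. The combination libraries lay lowest but for 1 library with A-485, and the change with both was -1.50 ± 0.39 (limma adjusted p = 0.0467). DERL3 rested on 5.2 to 93.5 estimated fragments per library. Its call was lost in 6 of 8 fits with a library left out, all but those without an A-485 library, up to an adjusted p of 0.18 without combination replicate 1. With a pseudocount of 0.1 the change was -2.14 and the adjusted p 0.0718 (limma). The ligase SYVN1 and its partner SEL1L had changes with both inhibitors of 0.02 and -0.41. The mannosidase-like EDEM1, EDEM2 and EDEM3, which mark glycoproteins for disposal, had 0.06, -0.33 and 0.02. DERL1 and DERL2 had -0.07 and 0.33, and the lectin OS9 had 0.41 (limma adjusted p = 0.224), the highest of the 36.

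The 3 translocation and export genes had medians of -0.68 with both inhibitors and -0.77 with A-485. SEC24D, a cargo adaptor of the COPII coat that buds vesicles from the compartment, had 12.8 and 12.4 scaled FPKM with both inhibitors, 6.35 and 6.68 with A-485, 11.2 and 17.7 with I-CBP112 and 20.4 and 21.4 with DMSO. The A-485 libraries were the lowest, below those with both compounds. SEC24D fell by 1.54 ± 0.22 with A-485 (limma adjusted p = 0.0113) and had -0.68 ± 0.22 with both (limma adjusted p = 0.0884). The call with A-485 was lost without DMSO replicate 1 (limma adjusted p = 0.0548) or A-485 replicate 1 (0.0731) or 2 (0.0786). SEC61A1 and SEC61B, subunits of the translocation channel, were not called, with -0.87 and -0.56 for both inhibitors and -0.77 and -0.67 for A-485.

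Levels over all 8 libraries spanned a wide range, and uncalled genes were found over most of it. Next to P4HB, CALR ranged over 585 to 1098, SEC61B over 313 to 599.9, SEC61A1 over 168 to 399 and HSP90B1 over 176 to 315 scaled FPKM. Between these and the low genes lay PDIA6 at 97.6 to 175, PDIA4 at 65.6 to 153, OS9 at 98.3 to 152, DERL2 at 43.6 to 91.0 and DERL1 at 37.8 to 68.8. DNAJB11 ranged over 26.1 to 42.1, PDIA3 over 16.7 to 26.4, SYVN1 over 20.4 to 25.5, EDEM2 over 12.0 to 21.4 and SEL1L over 10.033 to 20.7. Lower levels were found for DNAJC10 at 6.90 to 13.7, EDEM1 at 9.59 to 11.4, DNAJC3 at 6.005 to 7.66, EDEM3 at 3.48 to 6.64 and HYOU1 at 0 to 4.53. For OS9 both combination libraries, at 152 and 138, lay above both DMSO libraries, at 121 and 98.3, and the same held for EDEM1, at 11.2 and 11.4 against 11.1 and 10.6. These were the 2 of the 36 genes in that order, which 27% of all genes tested showed.

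Several genes given above as not called gained a call under alternatives. The column names of the libraries numbered 1 share a prefix and those numbered 2 share another, which the labels do not explain. With the replicate number as a block, 16 of 36 genes were lower with both inhibitors, where 12.2% of all genes were, and 19 of 36 with A-485, where 8.93% were. The 4 gained with both inhibitors were PDIA4 (limma adjusted p = 0.0174), PDIA6 (0.0224), SEC61A1 (0.0251) and SEC24D (0.0489). The 10 gained with A-485 were CRELD2 (limma adjusted p = 0.0266), PDIA4 (0.0292), CREB3L4 (0.0295), P4HB (0.0373), PDIA6 (0.0394), CANX (0.0404), SEC61B (0.0456), SEC61A1 (0.0468), ATF6 (0.0475) and EDEM2 (0.05, just under the threshold before rounding). Counted by fragments in place of summed FPKM, 17 of 36 were lower with both inhibitors, where 10.7% of all genes were, and 12 of 36 with A-485, where 6.8% were. Those gained with both inhibitors were SEC24D at -0.97 (limma adjusted p = 0.0126), PDIA6 at -0.66 (0.0286), SEL1L at -0.65 (0.0318), PDIA4 at -0.81 (0.0415) and SEC61A1 at -0.81 (0.044). Those gained with A-485 were CRELD2 (limma adjusted p = 0.0308), ATF6 (0.0388) and SEC61B (0.0475).

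Within the 12 genes called with both inhibitors, the libraries numbered 1 gave changes of -2.17 to -0.82 and those numbered 2 gave -1.74 to -0.63. For the 9 genes called with A-485 these were -1.70 to -0.74 and -1.68 to -0.86. These genes were called from the same libraries, and each value rests on 1 library per group, so the ranges carry no test.

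The combination was also set against each compound alone. Against I-CBP112, both inhibitors lowered 1 of 36 genes (2.78%), where 1.91% of all genes were lower. That gene was XBP1, with -1.17 ± 0.23 (limma adjusted p = 0.0438). Its call was lost without either I-CBP112 library (limma adjusted p = 0.142 and 0.24), either A-485 library (0.0802 and 0.0808) or either combination library (0.226 and 0.247). HERPUD1 had -0.97 (limma adjusted p = 0.0518) and DNAJB9 -0.77 (limma adjusted p = 0.0988). Against A-485, 0 of 36 genes were called by limma, beside 0.808% of all genes, and 3 had an unadjusted p under 0.05. These 3 were CREB3L4 at -0.89 (limma adjusted p = 0.0792), SEC24D at 0.86 (limma adjusted p = 0.161) and CREB3 at 0.67 (limma adjusted p = 0.346). The median over the 36 was 0.03. A-485 against I-CBP112 also gave 0 calls by limma, beside 0.817% of all genes, with 8 genes lower at an unadjusted p under 0.05 and a median of -0.20. HERPUD1, at -1.06 (limma adjusted p = 0.0639), and SEC24D, at -1.005 (limma adjusted p = 0.0898), came closest.

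The interaction compares the change under combined treatment with the change that adding up the 2 single treatments would give. The interaction lay above 0 in 31 of the 36 genes and below 0 in 5, where 46.1% of all genes tested lay below 0. Its median was 0.38 against 0.04 over all genes tested. The same DMSO libraries enter it with a plus sign for every gene, so the count of genes above 0 carries no test. No gene was called by limma, of the 36 or of all genes (0%), and 6 of the 36 and 1055 of all genes had an unadjusted p under 0.05. SEC24D had the lowest p, with a value of 1.40 ± 0.31 (limma adjusted p = 0.295), followed by ERN1 with 0.70 (limma adjusted p = 0.504) and CREB3 with 0.97 (limma adjusted p = 0.506).

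Beyond the 36, other lists of the secretory pathway were counted, to be read against the 7.35% of all genes lower with both inhibitors and 3.33% with A-485. These lists too were chosen with earlier results of these data known. The lowest list median was that of the PERK and ATF4 arm. Both inhibitors lowered 6 of its 9 genes, with a median of -1.53, and A-485 lowered 6 of 9, with a median of -2.02. ATF4, the factor translated when PERK is active, had 295 and 384 scaled FPKM with both inhibitors, 309 and 394 with A-485, 678 and 795 with I-CBP112 and 1105 and 860.3 with DMSO. It fell by 1.53 (limma adjusted p = 0.00816) with both and 1.48 (limma adjusted p = 0.0192) with A-485, and in each case both treated libraries lay below both DMSO libraries. DDIT3, the stress factor CHOP, had 29.3 and 41.4 scaled FPKM with both inhibitors, 23.6 and 37.2 with A-485, 81.3 and 83.0 with I-CBP112 and 117 and 130.0 with DMSO and fell by 1.79 (limma adjusted p = 0.00517) with both and 2.02 (limma adjusted p = 0.00774) with A-485. TRIB3 and CHAC1, targets of these factors, fell by 2.86 (limma adjusted p = 0.00146) and 2.64 (limma adjusted p = 0.000801) with both inhibitors, and ASNS, the asparagine synthetase, by 1.84 (limma adjusted p = 0.00456).

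Of 21 other folding genes, 4 were lower with both inhibitors (19%, beside 7.35% of all genes) and 5 with A-485 (23.8%, beside 3.33%). The medians of this list were -0.46 with both inhibitors and -0.60 with A-485. The 4 were the disulfide isomerase family members PDIA5, at -1.67 (limma adjusted p = 0.00246), and TXNDC5, at -0.82 (limma adjusted p = 0.0493), the prolyl isomerase FKBP11, at -0.89 (limma adjusted p = 0.0286), and the sulfhydryl oxidase QSOX1, at -0.86 (limma adjusted p = 0.0269). Of 16 translocon and signal peptide genes, whose medians were -0.494 with both inhibitors and -0.485 with A-485, 2 were lower with both (12.5%). These were SRPRB of the signal recognition particle receptor at -1.03 (limma adjusted p = 0.0193) and SSR3 of the translocon-associated complex at -0.98 (limma adjusted p = 0.0329). Of 17 other degradation genes, 1 was lower with both (5.88%), a smaller share than the 7.35% of all genes. It was the ubiquitin-conjugating enzyme UBE2J1, at -1.07 (limma adjusted p = 0.0108). Of the 9 oligosaccharyltransferase genes and the 10 other COPII genes, 0 were called by limma with both inhibitors, and 2 and 0 had an unadjusted p under 0.05. Their medians were -0.23 and -0.11.

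The list of partners of the sensors holds the Golgi proteases MBTPS1 and MBTPS2, the relative ATF6B, the IRE1 adaptor TRAF2, the RTCB ligase that joins the cut XBP1 mRNA, and NFYA, NFYB, NFYC and YY1, which bind the response element or its factors. The list also holds CREB3L1 and CREB3L3, which fell below the filter on low values and were not tested. Of the 9 genes tested, 0 were called by limma with both inhibitors and 2 had an unadjusted p under 0.05. These 2 were NFYA, at 0.48 (limma adjusted p = 0.176), and NFYB, at 0.65 (limma adjusted p = 0.139). ATF6B had a log2 fold change of 0.04 with both, and MBTPS1 and MBTPS2 had 0.03 and 0.01. Among 16 cytosolic and mitochondrial heat shock genes, the median was 0.08 with both inhibitors and -0.02 with A-485. Of the 16, 1 was called lower with both (6.25%), a smaller share than the 7.35% of all genes. It was the mitochondrial chaperonin HSPD1, at -1.10 (limma adjusted p = 0.0178). With A-485, 0 were called by limma, beside 3.33% of all genes lower and 1.36% higher, and 3 had an unadjusted p under 0.05.

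**Figure D4:**
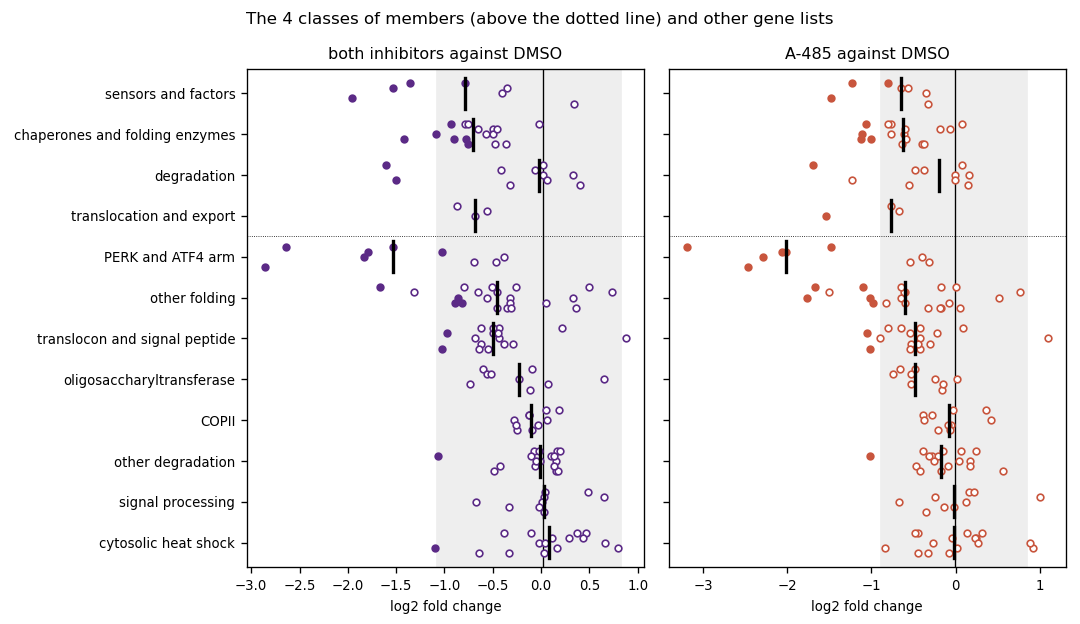
Log2 fold change of each gene (points, filled where the adjusted p was under 0.05) by class of the 36 genes and by other list, for both inhibitors against DMSO on the left and A-485 against DMSO on the right. Thick ticks mark the median of a list, the thin line the median of all genes tested and the shading their 5th to 95th percentile. The medians of the sensors, the chaperones, the translocation and export genes and the PERK and ATF4 arm lie left of the thin line. So do those of the other folding, translocon and signal peptide, and oligosaccharyltransferase lists. The medians of the 2 degradation lists and COPII lie closer to it, and those of the signal processing and heat shock genes lie near it.

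Set beside the promoter letters shown above, 6 of the 10 genes with an ERSE or ERSE-II match were lower with both inhibitors. So were 5 of the 22 with a promoter and neither match, and 7.35% of all genes tested. The medians of the 10 and the 22 were -0.77 and -0.44, and the 10 include HYOU1, which could not be read. With A-485 these counts were 4 of 10 and 4 of 22, beside 3.33% of all genes, with medians of -0.72 and -0.52. These genes came from a chosen list, and other genes with a match were not examined. With both inhibitors CALR, HSP90B1, PDIA6 and HYOU1 had a match and were not called, the last on few fragments. ERN1, CREB3L2, CREB3L4, DNAJB9 and MANF had none and were lower.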

How the data were processed

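Total RNA behind the 8 LNCaP-FGC libraries was extracted with Trizol and DNase, per the labels' protocols. The authors deposited 1 value per transcript and library, for 81591 transcripts. The builds hg19 and GRCh37 and the tools STAR, Cufflinks, DESeq2 and DESeq are named, per the submitters' processing notes, without version or role. The deposited values were treated as FPKM because 78.3% were not whole numbers, although the table was named as counts. Of the transcripts, 74209 (91.0%) matched GENCODE release 29, which follows another build and served for gene names, lengths and the XBP1 models, and they were summed per gene. Promoters and motifs came from RefSeq, build GRCh38.p14. In each library the fragments were estimated from the step that 1 fragment gives in the low FPKM values.

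Libraries were scaled to a total of 1e+06 and by a trimmed mean of log ratios (30% of ratios and 5% of levels trimmed). Genes with a scaled FPKM of at least 1 in at least 2 libraries were put on the log2(scaled FPKM + 1) scale. They were fitted in R 4.3.3 by limma 3.58.1 with 4 group means and the trend and robust options. The spread was pooled over groups on 4 residual degrees of freedom, to which limma added prior ones borrowed over genes. There were 7 comparisons, each adjusted by Benjamini-Hochberg. The fit over genes and the scaling were tested on simulated data, in which the spread of a gene was the same in every library. Nothing says that libraries of a group came from separate cultures, so the spread behind the p-values is that of these samples and may be technical. The genes and lists were chosen with earlier results of these data known. Values per library were given for all sensors and factors and for other members called against DMSO. Genes of the other lists were named where called with both inhibitors, at most 4 a list by adjusted p, and ATF4, DDIT3, ATF6B, MBTPS1 and MBTPS2 always. Alternatives were the pseudocount, the filter, the scaling, a replicate block, the groups in the fit, fragments in place of summed FPKM, and leaving out each library. Further luminal markers are not reported here.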

Additional observations from a re-analysis of the deposited data

How the results depend on the processing

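Measured from the median gene, no direction of a called gene changed under any alternative. On unscaled FPKM with no such centring, CANX and CRELD2 with both inhibitors stood at 0.001 and 0.013. Counted as 1 gene in 1 comparison, there were 22 calls, so a gene could count more than once. All 22 calls were kept with median ratio scaling, with the replicate block and with fragments in place of summed FPKM. Of them, 21 were kept with a pseudocount of 0.1, 19 with no filter and 10 with only the 2 groups compared. With FPKM as deposited, whose totals differed widely within groups, 0 were kept. The count with both inhibitors against DMSO was 12, and it was 0 with unscaled FPKM and 7 with only the 2 groups compared. For A-485 against DMSO the count of 9 became 0 with unscaled FPKM, 2 with only the 2 groups compared and 19 with the replicate block, in which all genes called numbered 1577, against 557. For both inhibitors against I-CBP112 the count of 1 became 0 with no filter or unscaled FPKM, 2 with median ratio scaling or the replicate block, and 4 by fragments. Against A-485 it went to 1 with the replicate block and by fragments, and for A-485 against I-CBP112 to 2 with either. Among transcripts of the 36 genes, 1 was called with a pseudocount of 0.1, against 0.

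With 1 library left out, the count was 5 to 11 with both inhibitors (5 without combination replicate 1 or 2, 6 without DMSO replicate 1). It was 0 to 14 with A-485 (2 without DMSO replicate 1, 14 without DMSO replicate 2, and 2 and 0 without the first and second A-485 library) and 0 to 2 for both inhibitors against I-CBP112. All genes called then numbered 284 to 1334 with both inhibitors, against 1226, and 20 to 1394 with A-485, against 557. With both inhibitors they numbered 2252 with the block, 2029 by fragments and 797 with only the 2 groups, with A-485 1378 by fragments, 353 with no filter and 117 with only the 2 groups, and 0 in all with unscaled FPKM. For both inhibitors against I-CBP112 they ranged over 46 to 621 under the alternatives other than unscaled FPKM, against 258. Against A-485 alone the range was 20 to 209, against 96, and for A-485 against I-CBP112 6 to 304, against 97. The interaction, with 0, had 11 with the block and 34 by fragments. Where a group kept 1 library, that library was assumed to vary like the others. Uncalled values within 1 standard error of 0 were read as having no direction. Otherwise the sign changed with 1 library left out for CREB3, with values of -0.038 to 0.717 with both inhibitors, -0.707 to 0.037 with A-485 and -0.685 to 0.072 with I-CBP112, for HYOU1 with both (-1.55 to 0.027), and with I-CBP112 for P4HB (-0.816 to 0.065) and EDEM3 (-0.067 to 0.586), each without 1 DMSO library. The cause was not tested.

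The replicate numbers are shared by the groups, and the column names of 1 number share a prefix, but the labels do not explain either. Deviations of same-numbered libraries from their group means correlated at 0.144 to 0.425 over genes in the 6 pairs of groups, and with 2 numbers this does not establish pairing. A replicate block on these numbers ended no call. Few fragments limit DERL3 and HYOU1, with 5.2 and 0 fragments in their lowest libraries, both numbered 2. XBP1-202 was lowest in DMSO replicate 1, a deep library.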
